A study of Rattus norvegicus with 9 samples.

Results

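The comparison described here set rat tongues that had received IL-1Ra during carcinogenesis against tongues that had not. Its members were the 3 arrays of tongue labelled 4NQO+IL-1Ra and the 3 arrays labelled 4NQO, 6 of the 9 arrays of the series, and all 31042 probe sets other than the control probe sets were tested. Animals of both groups were male Sprague-Dawley rats that drank water holding 0.002% 4NQO (4-nitroquinoline 1-oxide, a carcinogen that gives rise to oral dysplasia and squamous cell carcinoma). The study's methods state 14 weeks of 4NQO followed by weekly injections under the tongue surface, in the middle part of the tongue, of recombinant rat IL-1Ra, the IL-1 receptor antagonist. The 4NQO group received the saline diluent in the same way, and the animals were killed at the end of week 22. The labels state 22 weeks of exposure and killing from week 14 onwards in animals with visible lesions. The design text of the series speaks of epithelia and fibroblasts, but the samples are labelled as tongue tissue and were read as such. No source used here gives the stage of the lesion in each sample, and pieces of tongue cut lengthwise were used, so each array holds epithelium, muscle, vessels and connective tissue together. The remaining 3 arrays came from normal tongues of rats that drank plain water. Their levels are given as background only, and their spread entered the estimate of error. The labels do not state that the samples came from separate animals, so the p-values measure the spread between these samples.

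IL-1 alpha and IL-1 beta are inflammatory cytokines that act through the receptor IL1R1 and its partner IL1RAP, and from there through MYD88 to NF-kB. IL-1Ra, the product of Il1rn, occupies IL1R1 without signalling, and IL1R2 is a decoy that binds IL-1 without passing a signal on. The upper surface of the rat tongue is a cornified stratified epithelium with keratinised papillae. Basal cells attached to the basement membrane by hemidesmosomes move upwards, change their keratins, build a cornified envelope from cross-linked proteins under the membrane, fill the space between cells with lipids and are shed by proteases. Most of the organ below is striated muscle. The arrays measure messenger RNA of the rat, so the injected protein itself leaves no signal on them.

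The tissue was checked against defining markers. The keratins of oral epithelium, Krt4 and Krt13, lay between 12.85 and 13.64 log2 on the 6 arrays, and the muscle genes Acta1 and Ckm between 13.32 and 13.60 log2, near the top of the scale on every array. A level here is the log2 of the deposited intensity of a gene's brightest probe set, and the lower quartile of an array, 3.60 to 3.78 log2, is taken as background. The arrays correlated with each other at 0.967 to 0.995 and none were identical. The median within-group SD of a probe set was 0.150 log2 for IL-1Ra, 0.190 for 4NQO and 0.113 for normal tongue. In these bulk samples fewer cells of a type and less RNA per cell cannot be told apart. The arrays of the groups did not overlap in the 3′ to 5′ control ratio for 2 of 3 control genes, which went in opposite directions. For GAPDH it was 0.266 ± 0.010 log2 (SD, n = 3) in IL-1Ra and 0.347 ± 0.069 in 4NQO, and for hexokinase 1.98 ± 0.20 and 1.5 ± 0.26, with all IL-1Ra arrays on one side in both (exact permutation p = 0.1, the smallest that 3 against 3 allows). Its part in the results was not tested.

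At an adjusted p of 0.05 (limma, Benjamini-Hochberg over all probe sets, used for every adjusted p below), 722 probe sets or 2.33% differed between IL-1Ra and 4NQO tongue. Of these, 495 (1.59%) were higher in IL-1Ra and 227 (0.731%) lower, and 305 differed by at least 2-fold, 288 of them higher. With 1 probe set per gene, 379 of 14217 genes (2.67%) were called, 272 higher (1.91%) and 107 lower (0.753%), and in all 379 the arrays of the groups did not overlap. Counts of called list members below are to be read beside these shares of all genes. The share of calls that were higher, 68.6%, depended on the scaling and the arrays. It was 79.9% after cyclic loess, 56.1% with an offset of 16 intensity units and 94.4% when the 6 arrays were fitted without the normal tongues. That last fit called 195 probe sets. The number of calls also depended on single arrays. It fell to between 184 and 245 when any 1 IL-1Ra array was left out, to 403 without 4NQO array 2 and to between 378 and 474 without any 1 normal array, and it was 2353 without 4NQO array 3, of which 1173 were higher and 1180 lower. The test that the methods name, which does not share variances between probe sets, called 0 probe sets after Benjamini-Hochberg adjustment and 3737 at an unadjusted p under 0.05.

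**Figure D1:**
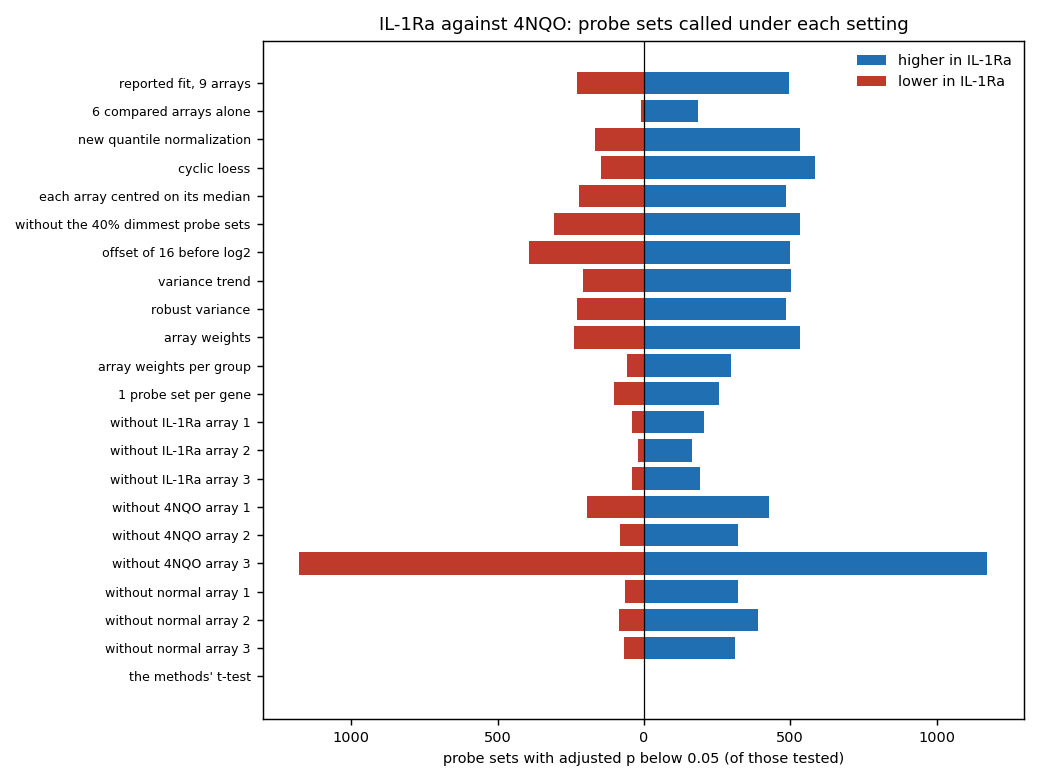
Number of probe sets called higher in IL-1Ra (bars to the right) and lower (bars to the left) at an adjusted p of 0.05 in the reported fit and under each other setting. The reported fit calls 495 higher and 227 lower, and the bars are widest without 4NQO array 3, at 1173 and 1180.

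Genes of the cornifying epithelium were higher in the IL-1Ra tongues. Of 16 measured proteins of the cornified envelope 8 rose and 0 fell, beside 1.91% and 0.753% of all genes. For all 16 every IL-1Ra array lay above every 4NQO array, against 9.31% of all genes. The median difference of the list was 2.15 log2, beside -0.04 over all genes. Those that rose were Kprp, Lce1f, Lce3b, Kplce, Sprr2d, Ivl, Ppl and Scel.

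Kprp, a proline-rich protein of the cornified layer, measured 11.61, 11.92 and 11.24 log2 on the IL-1Ra arrays and 7.41, 5.54 and 8.08 log2 on the 4NQO arrays. The gap was 24.0-fold (4.58 ± 0.55 log2, SE, adjusted p = 0.00372), and no 4NQO array came within 3 log2 units of an IL-1Ra array. Normal tongue lay at 11.90, 10.70 and 11.57 log2, at the level of the IL-1Ra arrays. Scel, or sciellin, a precursor of the envelope, varied less between arrays. Its levels were 10.99, 11.15 and 11.11 log2 in IL-1Ra and 9.59, 8.89 and 9.91 log2 in 4NQO, a rise of 3.08-fold (1.62 ± 0.21 log2, SE, adjusted p = 0.00602). Lce3b, a late cornified envelope protein, stood at 12.34, 12.21 and 12.33 log2 in IL-1Ra against 10.18, 8.0 and 10.01 log2 in 4NQO (7.44-fold, adjusted p = 0.0139). A second Lce3b probe set rose by 3.34 log2 (adjusted p = 0.00378). In each of these genes 4NQO array 2 was the lowest array.

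Lce1f, of the same late envelope family, measured 10.52, 10.89 and 9.99 log2 in IL-1Ra and 7.26, 5.98 and 8.02 log2 in 4NQO (10.4-fold, adjusted p = 0.0155). Ivl, involucrin, an early scaffold of the envelope, was dimmer, at 6.32, 6.20 and 6.98 log2 against 3.90, 3.48 and 4.61 log2, the 4NQO arrays being near background (5.66-fold, adjusted p = 0.0182). Ppl, periplakin, which links the envelope to keratin filaments, was at 11.86, 11.93 and 11.80 log2 against 10.28, 8.94 and 10.57 log2 (3.82-fold, adjusted p = 0.0182). The IL-1Ra arrays were closer together than the 4NQO arrays in all 3 genes. Sprr2d, a small proline-rich envelope protein, rose 10.3-fold (adjusted p = 0.0469) from 7.72, 5.06 and 7.96 log2 in 4NQO to 10.71, 10.30 and 9.82 log2 in IL-1Ra, above the normal tongues at 7.74, 6.59 and 8.77 log2. Kplce, which lies in the same gene complex, rose 12.4-fold (adjusted p = 0.0446).

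The other 8 measured envelope genes did not pass. Loricrin, the main protein of the mature envelope, was at 13.30, 13.33 and 13.24 log2 in IL-1Ra and 12.58, 10.59 and 12.47 log2 in 4NQO (adjusted p = 0.11). Sprr1a and Sprr3 had adjusted p-values of 0.0877 and 0.0883, and Cdsn, the adhesion protein of corneodesmosomes, of 0.0531. The smallest gap in the list was that of Krtdap, 0.44 log2.

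Kprp and Scel were called with any 1 of the 9 arrays left out. Lce3b and Ppl lost their call without each IL-1Ra array (adjusted p up to 0.0787), Lce1f without IL-1Ra array 1 or 2 (up to 0.0741) and Ivl without any IL-1Ra array or 4NQO array 2 (up to 0.0667). Sprr2d and Kplce lost theirs without each array except 4NQO array 3 and normal array 2 (up to 0.143 and 0.156). The number of envelope genes that rose was 2, 2 and 3 without IL-1Ra array 1, 2 and 3, and 15 without 4NQO array 3. Without 4NQO array 2 it was 10, with a list median of 1.39 log2, and with the 6 arrays alone it was 4.

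**Figure D2:**
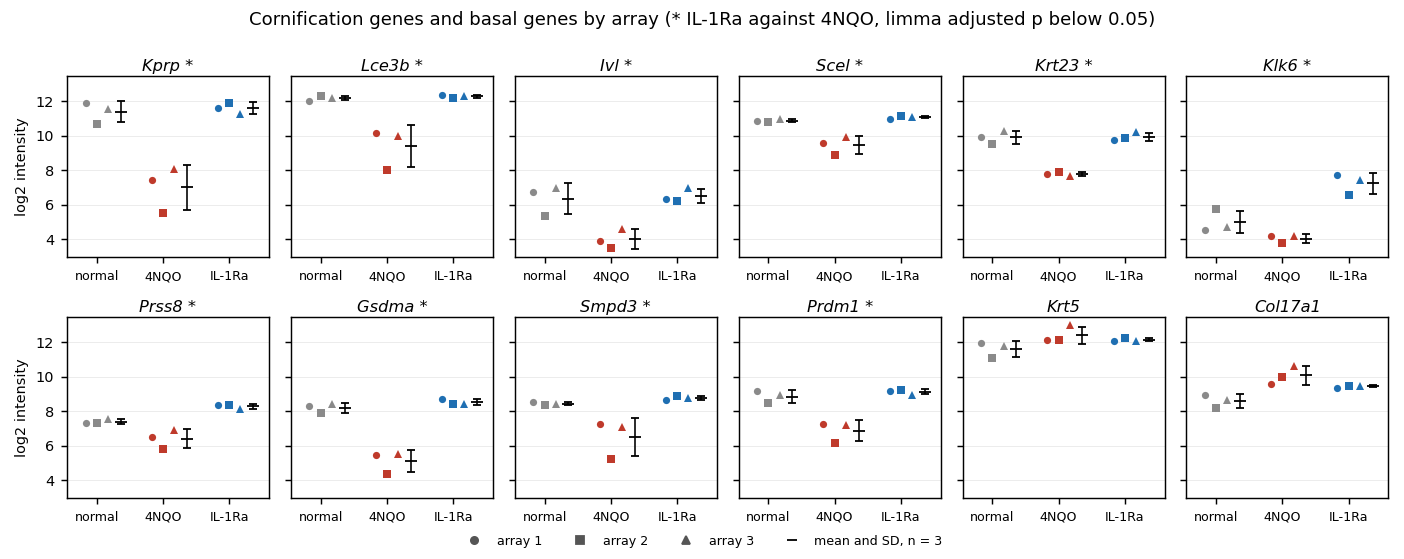
Level (log2 intensity) of 12 epithelial genes by array, in blue for IL-1Ra, red for 4NQO and grey for normal tongue, with the mean and SD of 3 arrays, and an asterisk marks genes called between IL-1Ra and 4NQO. Kprp lies between 11.24 and 11.92 in IL-1Ra and between 5.54 and 8.08 in 4NQO, while the basal genes Krt5 and Col17a1 are not called.

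The enzymes that work on the cornified layer were higher as well. Of 20 measured proteases, transglutaminases, inhibitors and related proteins 10 rose and 0 fell, with a median of 1.54 log2. In 15 of the 20 the arrays of IL-1Ra lay wholly above those of 4NQO, against 9.31% of all genes. Klk6, a kallikrein protease, measured 7.74, 6.56 and 7.45 log2 in IL-1Ra and 4.16, 3.76 and 4.21 log2 in 4NQO (9.22-fold, 3.20 ± 0.35 log2, SE, adjusted p = 0.00296). The normal tongues, at 4.57, 5.74 and 4.70 log2, lay below all IL-1Ra arrays. Prss8, or prostasin, a membrane-anchored protease of barrier epithelia, was at 8.36, 8.37 and 8.10 log2 against 6.52, 5.80 and 6.90 log2 (3.65-fold, adjusted p = 0.0046), with normal tongue in between at 7.33, 7.29 and 7.55 log2. Asprv1, an aspartic protease of the granular layer that processes filaggrin, stood at 12.51, 12.42 and 12.50 log2 against 10.47, 7.89 and 9.77 log2 (8.57-fold, adjusted p = 0.0144). Klk10, another kallikrein, was at 11.12, 11.09 and 11.15 log2 against 9.05, 7.10 and 9.18 log2 (6.38-fold, adjusted p = 0.0166). In both of these the IL-1Ra arrays nearly coincided and 4NQO array 2 was the lowest.

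Gsdma, a gasdermin of differentiated keratinocytes that can form membrane pores, measured 8.72, 8.41 and 8.43 log2 in IL-1Ra, 5.46, 4.34 and 5.50 log2 in 4NQO and 8.30, 7.88 and 8.41 log2 in normal tongue, and the rise was 10.7-fold (3.42 ± 0.28 log2, SE, adjusted p = 0.00132). A second probe set rose by 3.12 log2. Anxa9, an annexin, was at 8.78, 8.74 and 8.77 log2 against 7.17, 5.85 and 6.90 log2 (4.35-fold, adjusted p = 0.00504), though its dimmer probe set differed by 0.35 log2 (adjusted p = 0.317). Tmprss11d, an airway-type transmembrane protease, rose 5.90-fold (adjusted p = 0.0221). The smaller rises were Padi1, an enzyme that citrullinates proteins of keratinocytes (3.67-fold, adjusted p = 0.0459), the protease Prss27 (2.55-fold, adjusted p = 0.0245) and Serpinb2, plasminogen activator inhibitor 2 (2.08-fold, adjusted p = 0.0455). The cross-linking transglutaminases did not pass: Tgm1 was at 10.17, 10.36 and 9.89 log2 against 8.84, 7.35 and 9.60 log2 (adjusted p = 0.111), and Tgm3 had an adjusted p of 0.135.

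Klk6, Prss8, Gsdma and Anxa9 were called with any array left out. Asprv1, Klk10 and Tmprss11d lost their call without each IL-1Ra array (adjusted p up to 0.0962), and Prss27 without those, 4NQO array 1 or 2 or normal array 3 (up to 0.0984). Padi1 and Serpinb2 lost theirs without each array except 4NQO array 3 and normal array 2 (up to 0.156). The list held 4 rises without any 1 IL-1Ra array or with the 6 arrays alone, 17 without 4NQO array 3, and a median of 1.04 log2 without 4NQO array 2.

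The promoters of the measured members of these 2 lists, called or not, were searched for TGANTCA, in which N is any base. AP-1, a factor of keratinocyte differentiation, reads the forms with C or G at N, so the motif searched for is wider than its site. RefSeq promoters (GRCr8, 250 bases before to 50 after the start site, read on both strands) were found for 13 of the 16 envelope genes, and 5 of those (38.5%) held the motif, as did 4 of 16 (25%) in the protease list and 7.33% of all 33469 promoters of this length. The shares of the lists count genes with the motif in any of their promoters. The share of all promoters counts promoters, so the measures are not alike. Of the 9 genes that held the motif 4 were called, Scel, Klk6, Serpinb2 (with T at N) and Tmprss11d. The promoters of 3 of these are printed, with the match in capitals, to show that its place varies. It begins 37 bases before the start site in Scel (chr15:86754382-86754681, plus strand), 87 before in Tmprss11d (chr14:22108279-22108578, plus strand) and after the start site in Klk6 (chr1:103415266-103415565, plus strand). A match of letters is a description and not evidence of binding.
Scel: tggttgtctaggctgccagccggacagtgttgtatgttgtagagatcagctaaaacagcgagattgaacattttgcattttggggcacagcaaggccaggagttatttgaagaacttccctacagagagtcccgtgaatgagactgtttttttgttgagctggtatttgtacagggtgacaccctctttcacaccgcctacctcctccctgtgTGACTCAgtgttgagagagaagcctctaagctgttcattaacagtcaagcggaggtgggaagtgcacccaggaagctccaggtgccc
Tmprss11d: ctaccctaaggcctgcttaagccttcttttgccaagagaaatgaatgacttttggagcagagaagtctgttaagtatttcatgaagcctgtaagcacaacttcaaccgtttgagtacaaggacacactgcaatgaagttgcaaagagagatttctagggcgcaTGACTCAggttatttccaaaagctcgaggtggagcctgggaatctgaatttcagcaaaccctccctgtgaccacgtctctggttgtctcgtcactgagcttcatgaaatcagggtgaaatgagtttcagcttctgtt
Klk6: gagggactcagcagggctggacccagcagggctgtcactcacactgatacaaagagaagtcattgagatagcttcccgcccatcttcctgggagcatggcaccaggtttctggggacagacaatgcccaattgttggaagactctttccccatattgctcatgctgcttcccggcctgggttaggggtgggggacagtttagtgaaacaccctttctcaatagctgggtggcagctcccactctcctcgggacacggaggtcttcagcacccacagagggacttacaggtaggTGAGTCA

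Enzymes of the barrier lipids followed the same direction. Of 15 measured genes 6 rose and 0 fell, beside 1.91% and 0.753% of all genes, with a median of 0.79 log2. Smpd3, a neutral sphingomyelinase that releases ceramide, was at 8.65, 8.89 and 8.75 log2 in IL-1Ra and 7.25, 5.23 and 7.06 log2 in 4NQO (4.76-fold, adjusted p = 0.0264), beside 8.53, 8.35 and 8.43 log2 in normal tongue. Aloxe3, the epidermal lipoxygenase 3 that acts on acylceramide linoleate, measured 8.12, 8.55 and 8.13 log2 against 6.45, 5.78 and 7.08 log2 (3.55-fold, adjusted p = 0.0155). Elovl1, which elongates very long chain fatty acids, was at 10.34, 10.28 and 10.16 log2 against 8.97, 8.30 and 9.35 log2 (2.61-fold, adjusted p = 0.0142). In all 3 the groups were apart and IL-1Ra was the tighter one. The others were Degs2, a ceramide hydroxylase (4.65-fold, adjusted p = 0.0456), the ceramidase Acer1 (2.65-fold, adjusted p = 0.0316) and Abhd5, the coactivator of triglyceride lipases (1.73-fold, adjusted p = 0.0154), whose second probe set rose by 1.66 log2. Alox15, a lipoxygenase outside the barrier pathway proper, ran the other way in level, with 4.39, 4.07 and 4.04 log2 in IL-1Ra and 6.94, 5.03 and 4.20 log2 in 4NQO, but did not pass (adjusted p = 0.253). These calls depended on the arrays kept. Without IL-1Ra array 1, 2 or 3 the list held 0, 0 and 1 rises, with adjusted p-values up to 0.146 for Degs2, 0.123 for Acer1, 0.103 for Smpd3, 0.0735 for Aloxe3, 0.0656 for Abhd5 and 0.065 for Elovl1. Without normal array 1 or 3 it held 3, with the 6 arrays alone 2, and without 4NQO array 3 10 rises and 1 fall. Degs2, Acer1 and Smpd3 were the genes that also lost their call without a normal array, and Degs2 and Acer1 without 4NQO array 1.

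Among 7 suprabasal keratins 2 rose and 0 fell, with a median of 1.95 log2. None of 6 basal and stress keratins or 11 hemidesmosome and basal adhesion genes passed, with medians of 0.18 and -0.48 log2. Krt23, an acidic keratin of differentiated epithelia, measured 9.73, 9.88 and 10.21 log2 in IL-1Ra, 7.80, 7.92 and 7.69 log2 in 4NQO and 9.94, 9.52 and 10.26 log2 in normal tongue (4.39-fold, 2.14 ± 0.19 log2, SE, adjusted p = 0.00143). The 4NQO arrays lay close together too, and Krt23 was called with any array left out. Krt78 was at 11.38, 11.55 and 11.45 log2 against 9.58, 7.74 and 9.45 log2 (5.80-fold, adjusted p = 0.0141), a call lost without each IL-1Ra array (adjusted p up to 0.0651). Krt10, the keratin of cornifying cells, was at 11.13, 11.27 and 11.49 log2 against 9.43, 8.07 and 10.55 log2 (adjusted p = 0.11), and its partner Krt1 at 10.57, 9.37 and 10.57 log2 against 9.08, 6.73 and 11.71 log2 (adjusted p = 0.625). The Krt1 value of 4NQO array 3 lay above every other array.

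Of the basal layer, Krt5 lay at 12.09, 12.26 and 12.08 log2 in IL-1Ra and 12.12, 12.13 and 12.97 log2 in 4NQO (adjusted p = 0.639), and its partner Krt14 overlapped in the same way (adjusted p = 0.954). Col17a1, the collagen of hemidesmosomes, was at 9.36, 9.47 and 9.45 log2 against 9.58, 9.98 and 10.64 log2 (adjusted p = 0.221), and Itgb4, the integrin beside it, at 8.75, 8.70 and 8.83 log2 against 9.12, 8.94 and 9.64 log2 (adjusted p = 0.166). In 7 of the 11 genes all IL-1Ra arrays lay below all 4NQO arrays, against 13.5% of all genes, and 0 of 11 differences were above 0, but none was called. The hair-type keratins of the filiform papillae differed most in size and least evenly. Krt36 measured 11.11, 13.03 and 9.44 log2 in IL-1Ra, 4.5, 5.09 and 9.43 log2 in 4NQO and 12.88, 10.91 and 12.62 log2 in normal tongue, a 28.8-fold gap that did not pass (adjusted p = 0.0761). Array 3 of IL-1Ra and array 3 of 4NQO were at the same level, and the median of the 5 genes, 3.27 log2, became 2.0 without IL-1Ra array 2. Without 4NQO array 3, 5 suprabasal keratins and 2 hair-type keratins rose, and without 4NQO array 2 the median of the suprabasal list was 1.31 log2.

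**Figure D3:**
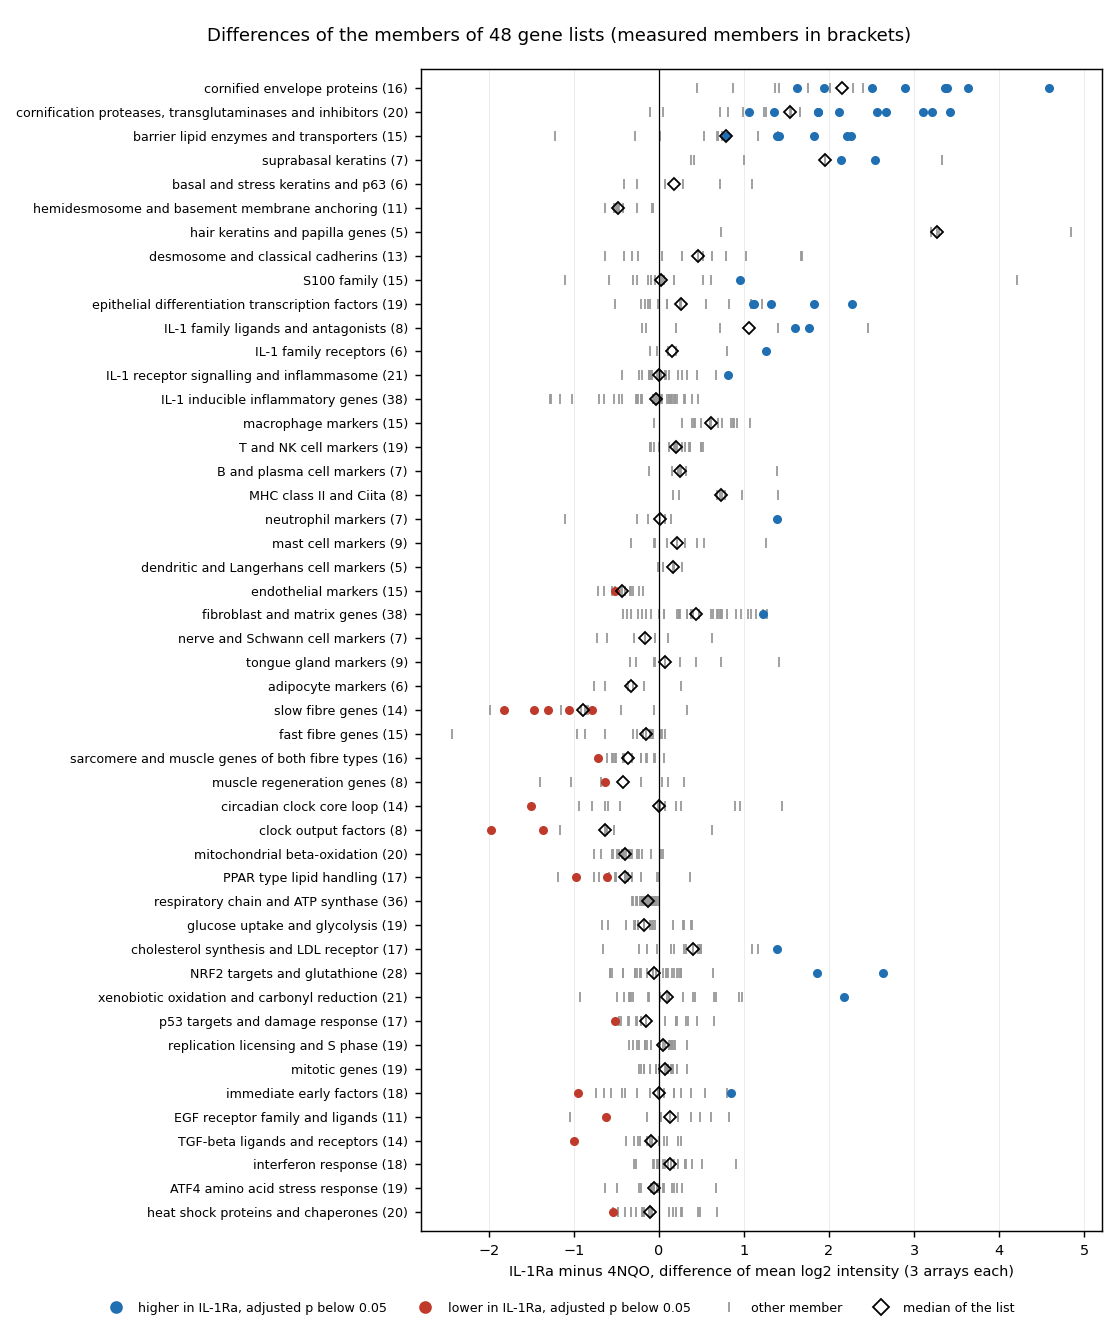
Difference between IL-1Ra and 4NQO (log2) of each measured member of the 48 gene lists, with called members in blue (higher) or red (lower), the others as ticks and the list median as a diamond. The cornified envelope list has its median at 2.15 with 8 members called, and the slow fibre list its median at -0.90 with 5 called.

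Regulators of epithelial differentiation were represented by 19 genes, of which 5 rose and 0 fell, with a median of 0.26 log2. Prdm1, or BLIMP1, a repressor expressed in cells about to cornify, measured 9.19, 9.25 and 8.94 log2 in IL-1Ra, 7.23, 6.16 and 7.17 log2 in 4NQO and 9.15, 8.44 and 8.92 log2 in normal tongue (4.83-fold, 2.27 ± 0.28 log2, SE, adjusted p = 0.00396). Hopx, a homeodomain protein without DNA binding of its own, was at 11.98, 12.06 and 11.92 log2 against 10.24, 9.48 and 10.77 log2 (3.54-fold, adjusted p = 0.00769). Ehf, an epithelial ETS factor, was at 6.12, 6.51 and 6.33 log2 against 5.17, 4.61 and 5.23 log2 (2.49-fold, adjusted p = 0.00608). The groups did not overlap in any of them, and each stayed called with any array left out. Grhl3, a grainyhead factor of barrier formation, and Pou2f3 both rose 2.16-fold (adjusted p = 0.0396 and 0.0421), but Grhl3 lost its call without each array except 4NQO array 3 (adjusted p up to 0.119) and Pou2f3 without any IL-1Ra array, 4NQO array 2 or normal array 1 or 3 (up to 0.148). Klf4, which drives barrier formation, was at 11.75, 11.84 and 11.42 log2 against 10.61, 9.86 and 11.30 log2 and did not pass (adjusted p = 0.113). Without 4NQO array 3 the list held 8 rises, and without single other arrays or with the 6 arrays alone 3 or 4. Of 13 desmosome and cadherin genes 0 passed (median 0.46 log2), though 5 rose and 1 fell without 4NQO array 3 and a dimmer probe set of the desmoglein Dsg1 was higher by 2.61 log2 (adjusted p = 0.0390, against 0.0846 for the brighter one). Of 15 S100 genes only S100a16 passed (3 without 4NQO array 3), at 11.12, 11.20 and 11.28 log2 against 10.32, 9.99 and 10.44 log2 (1.94-fold, adjusted p = 0.00611). S100a7l2, an S100A7-like protein, had a gap of 4.20 log2 between the means but measured 7.65 log2 on 4NQO array 3 against 3.89 and 3.56 log2 on the other 4NQO arrays (adjusted p = 0.0667).

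Single 4NQO arrays stood apart in the summed level of some epithelial lists. The log2 of the summed intensity of the 16 envelope genes was 16.12, 16.14 and 16.02 in IL-1Ra and 14.94, 13.47 and 15.09 in 4NQO, lowest on array 2. For the basal and stress keratins it was 14.87, 15.10 and 14.60 against 14.31, 13.98 and 15.28, with 4NQO array 3 above every IL-1Ra array. The part of the amount of epithelium in each sample was not tested.

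Of 8 measured ligands and antagonists of the IL-1 family 2 rose and 0 fell, with a median of 1.06 log2. Both were antagonists, Il1rn and Il36rn, but the largest difference of the list, 2.46 log2, was that of the agonist Il36b, which did not pass, and the lowest, -0.20 log2, that of Il18bp, the antagonist of IL-18 (adjusted p = 0.642). A difference between agonists and antagonists was not tested. Il1rn, which encodes the rat's own IL-1Ra, measured 7.34, 8.06 and 7.32 log2 in IL-1Ra, 5.56, 5.40 and 6.45 log2 in 4NQO and 6.99, 6.14 and 6.70 log2 in normal tongue (3.41-fold, 1.77 ± 0.31 log2, SE, adjusted p = 0.0218). Il36rn, the antagonist of the IL-36 receptor, was at 8.86, 9.23 and 8.98 log2 against 7.44, 6.70 and 8.14 log2 (3.02-fold, adjusted p = 0.0456). In both the arrays of the groups did not overlap.

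Among the agonists, Il36b stood at 7.27, 7.92 and 7.19 log2 against 5.13, 3.82 and 6.06 log2 (adjusted p = 0.053). Il1a, made by keratinocytes, was at 5.59, 5.83 and 6.83 log2 against 5.22, 3.82 and 5.01 log2 (adjusted p = 0.108), so every IL-1Ra array was higher without a call. Il1b, the form made mainly by myeloid cells, was at 5.33, 5.21 and 5.36 log2 in IL-1Ra, 6.71, 4.93 and 4.72 log2 in 4NQO and 5.10, 4.93 and 5.36 log2 in normal tongue (adjusted p = 0.879). Only 4NQO array 1 stood out in Il1b. Of 6 receptors (median 0.15 log2) 1 rose, the decoy Il1r2, at 7.95, 7.63 and 7.66 log2 against 6.42, 5.98 and 7.08 log2 (2.39-fold, adjusted p = 0.0252). The signalling receptor Il1r1 overlapped, at 6.56, 6.61 and 6.63 log2 against 6.94, 6.36 and 6.57 log2 (adjusted p = 0.947), and Il1rap was at 5.94, 6.30 and 6.29 log2 against 5.68, 4.62 and 5.82 log2 (adjusted p = 0.145).

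Downstream, 1 of 21 signalling genes rose, beside 1.91% of all genes, with a list median of 0.00 log2. It was the adaptor Myd88, at 9.61, 9.34 and 9.54 log2 in IL-1Ra, 8.82, 8.43 and 8.82 log2 in 4NQO and 8.57, 8.58 and 8.55 log2 in normal tongue (1.75-fold, adjusted p = 0.0155), so that the IL-1Ra arrays lay above both other groups. Traf6, the ubiquitin ligase that follows it, was at 8.05, 8.08 and 8.11 log2 against 7.69, 7.54 and 7.67 log2 (adjusted p = 0.0526). Tollip, an inhibitor of the pathway, did not pass by its brightest probe set (0.33 log2, adjusted p = 0.187), while a dimmer one was higher by 1.22 log2 (adjusted p = 0.0221). All calls of the family needed the IL-1Ra arrays. Il1rn lost its call without any IL-1Ra array or 4NQO array 1 or 2 (adjusted p up to 0.0892), Il36rn without each array except 4NQO array 3 and normal array 2 (up to 0.156), Il1r2 without any IL-1Ra array, 4NQO array 1 or normal array 3 (up to 0.0969) and Myd88 without IL-1Ra array 1 or 3 (up to 0.0646). With the 6 arrays alone the adjusted p-values of Il1rn, Il36rn, Il1r2 and Myd88 were 0.0565, 0.086, 0.0931 and 0.0746. Without 4NQO array 3, 4 of the 8 ligands and antagonists rose.

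**Figure D4:**
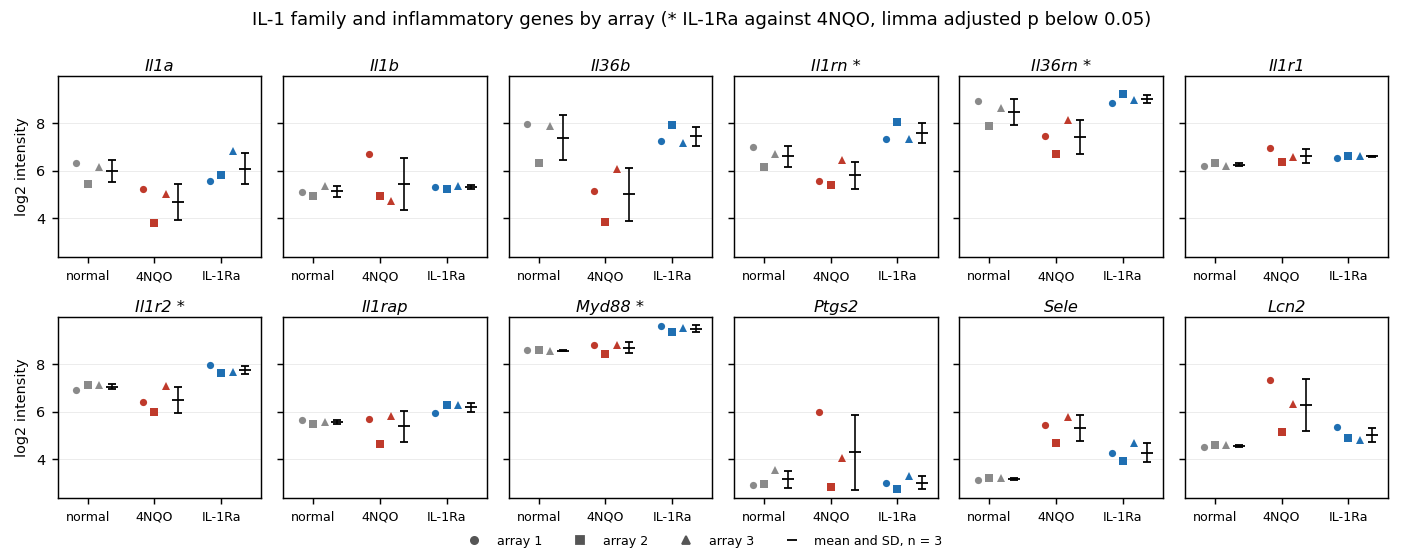
Level (log2 intensity) of 12 genes of the IL-1 family and its inducible genes by array, in blue for IL-1Ra, red for 4NQO and grey for normal tongue, with the mean and SD of 3 arrays, and an asterisk marks genes called between IL-1Ra and 4NQO. Il1rn is between 7.32 and 8.06 in IL-1Ra and between 5.40 and 6.45 in 4NQO, while Ptgs2 reaches 5.97 on 4NQO array 1 alone.

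None of 38 genes known to be induced by IL-1 passed the test, and their median difference was -0.04 log2, as was that of all genes. Many of them were dim, and the median level of the list was 4.63 to 5.55 log2 on the 6 arrays. With the 40% dimmest probe sets left out, 21 of the 38 remained, with 0 calls and a median difference of 0.11 log2. Sele, the endothelial selectin induced by IL-1, came nearest to a call. It was at 4.24, 3.90 and 4.68 log2 in IL-1Ra and 5.44, 4.69 and 5.78 log2 in 4NQO, all above the normal tongues at 3.11, 3.19 and 3.18 log2 (adjusted p = 0.077). Lcn2, lipocalin 2, was at 5.34, 4.87 and 4.80 log2 against 7.35, 5.16 and 6.31 log2 (adjusted p = 0.145), and Cxcl1, a neutrophil chemokine, at 4.43, 4.02 and 3.78 log2 against 6.63, 3.86 and 5.24 log2 (adjusted p = 0.269). The 4NQO arrays spread widely in these genes, with array 1 the highest in Lcn2 and Cxcl1. Ptgs2, or cyclooxygenase 2, was at background on the IL-1Ra arrays, at 2.99, 2.73 and 3.28 log2, and measured 5.97, 2.84 and 4.03 log2 in 4NQO (adjusted p = 0.286). Ccl2, a monocyte chemokine, was at 5.72, 5.28 and 6.59 log2 against 8.01, 4.53 and 6.63 log2 (adjusted p = 0.735), and the matrix protease Mmp3 at 6.74, 8.40 and 5.74 log2 against 8.31, 4.33 and 7.30 log2 (adjusted p = 0.903). The adhesion molecule Icam1 overlapped too (adjusted p = 0.482). The study used PCR in several experiments, not in this comparison alone. Among the genes with primers, Glrx, Gsdma, Hmox1, Il1r2, Dbp and Anxa9 were called here and are described with their lists. Of the other genes the study names or measured by PCR, Fos, an AP-1 subunit, was at 5.17, 7.19 and 7.56 log2 against 9.63, 6.26 and 5.96 log2 (adjusted p = 0.754), with 4NQO array 1 the highest and IL-1Ra array 1 the lowest. Myc was at 7.84, 7.68 and 7.95 log2 against 7.77, 7.98 and 8.50 log2 (adjusted p = 0.506), and Vsnl1, a neuronal calcium sensor, at 7.78, 7.98 and 7.80 log2 against 7.84, 8.28 and 9.07 log2 (adjusted p = 0.272). The chemokine Ccl20, the costimulatory receptor Cd40, the alarmin S100a8, the growth factors Tgfb2 and Tgfb3 and the matrix protease Mmp2 also overlapped between the groups (adjusted p = 0.681, 0.634, 0.818, 0.435, 0.5 and 0.193). Cxcl2, Mmp9 and Mmp13 were at or near background on most arrays and were not called (adjusted p = 0.995, 0.937 and 0.588). Without 4NQO array 1 the list median was 0.11 log2, and without 4NQO array 2 it was -0.13 log2 and 4 of the 38 genes, Lcn2, Cxcl1, Sele and Mmp12, were called lower in IL-1Ra.

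Immune and stromal cell markers gave few calls, beside 1.91% of all genes called higher and 0.753% lower. Macrophage markers were higher in level, 14 of 15 differences being above 0 with a median of 0.61 log2, but 0 passed. Cd68, a lysosomal protein of macrophages, was at 6.14, 6.51 and 6.85 log2 against 6.14, 5.13 and 5.57 log2 (adjusted p = 0.0902). The summed level of the 15 genes was 12.07, 12.02 and 12.64 in IL-1Ra and 12.28, 10.72 and 11.41 in 4NQO, so that 4NQO array 1 lay within the IL-1Ra range. Without that array 3 markers rose (Adgre1, C1qc and Cd68) and the median was 1.05 log2, and without 4NQO array 2 it was 0.33. Of 19 T and NK cell, 7 B cell, 8 MHC class II, 9 mast cell and 5 dendritic cell genes 0 passed, with medians of 0.21, 0.25, 0.73, 0.21 and 0.17 log2. Many of these genes were dim. With the 40% dimmest probe sets left out, 6 T and NK cell, 2 B cell, 8 MHC class II, 5 mast cell and 3 dendritic cell genes remained. Without 4NQO array 3, 4 MHC class II genes rose. The defining T cell marker Cd3d was at background in 4NQO. Of 7 neutrophil genes only Cxcr2, the chemokine receptor, rose, at 5.27, 5.12 and 5.73 log2 against 4.52, 3.31 and 4.13 log2 (2.62-fold, adjusted p = 0.0351), while Csf3r, which defines the lineage, lay between 3.03 and 3.92 log2 on all 6 arrays. The call was lost without any IL-1Ra or normal array (adjusted p up to 0.100). The neutrophil list was split, with 4 of 7 differences above 0 and 3 below 0 (median 0.02 log2). Its lowest difference, -1.10 log2, was that of S100a9, which was not called. The summed level of the 7 genes was 8.33, 7.55 and 7.92 in IL-1Ra and 9.52, 8.05 and 7.57 in 4NQO.

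Of 38 fibroblast and matrix genes 1 rose, beside 1.91% of all genes, with a list median of 0.44 log2. It was Timp2, an inhibitor of matrix proteases, at 10.40, 10.49 and 10.62 log2 against 9.95, 8.70 and 9.18 log2 (2.34-fold, adjusted p = 0.0386). Its second probe set differed by 0.34 log2 (adjusted p = 0.283), and the call was lost without any IL-1Ra or normal array or 4NQO array 2 (adjusted p up to 0.123). The collagen Col1a2 overlapped, at 10.45, 10.69 and 11.01 log2 against 10.65, 8.73 and 9.62 log2, and 4NQO array 2 was the lowest. Without 4NQO array 1, 10 of the 38 rose. Endothelial markers ran the other way, with 0 of 15 differences above 0 and a median of -0.43 log2. Rasip1, a regulator of vessel formation, was the 1 that fell, at 6.56, 6.43 and 6.60 log2 against 7.23, 6.95 and 6.95 log2 (1.43-fold lower, adjusted p = 0.0474), but its other probe sets differed by 0.20 and -0.25 log2, it was lost after cyclic loess (adjusted p = 0.0766) and it was lost without each array except 4NQO array 3 (up to 0.169). Pecam1, which defines endothelium, was at 8.19, 7.78 and 8.10 log2 against 8.68, 8.80 and 8.15 log2 (adjusted p = 0.144). Without 4NQO array 3, 5 endothelial genes fell. Nerve, gland and adipocyte lists had 0 calls among 7, 9 and 6 genes. The gland marker Aqp5 was near background, and the summed gland level was 8.33 on IL-1Ra array 2 against 6.91 to 7.26 on the other 5 arrays, with the tear lipocalin gene Lcn1 at 7.09 log2 there and 2.90 and 2.94 log2 on the other IL-1Ra arrays.

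Of the 107 genes that were lower in IL-1Ra, 18 belonged to the lists, among them genes of the circadian clock and of slow muscle fibres. Of the 10 largest falls among called genes, 3 belonged to the clock lists (Dbp, Nr1d2 and Bhlhe41) and 4 to the slow fibre list (Tnnt1, Tnnc1, Casq2 and Tnni1). The other 3 were LOC100910189, Kiaa0408L and Zdhhc20. The clock is a loop in which BMAL1 with CLOCK or NPAS2 switches on Per, Cry, Nr1d and output genes at E-boxes, and the products switch it off in turn.

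Dbp, an output factor that follows the clock with a wide daily swing, measured 7.40, 6.22 and 6.76 log2 in IL-1Ra, 8.65, 8.32 and 9.35 log2 in 4NQO and 6.49, 6.38 and 6.24 log2 in normal tongue. It was 3.94-fold lower in IL-1Ra than in 4NQO (-1.98 ± 0.30 log2, SE, adjusted p = 0.0127), and the IL-1Ra arrays overlapped the normal ones. Bhlhe41, or DEC2, a repressor at E-boxes, was at 8.37, 8.08 and 8.61 log2 in IL-1Ra, 10.01, 9.39 and 9.77 log2 in 4NQO and 8.20, 7.95 and 7.79 log2 in normal tongue (2.58-fold lower; -1.37 ± 0.19 log2, SE, adjusted p = 0.00713). Nr1d2, or REV-ERB beta, a repressor of Bmal1, was at 8.46, 7.12 and 8.05 log2 against 9.34, 9.40 and 9.41 log2 (2.85-fold lower, adjusted p = 0.0237), and its second probe set fell by 1.41 log2 (adjusted p = 0.0400). All 3 were lower on every IL-1Ra array. The rest of the loop was less even. Bmal1, on the opposite arm, was at 5.98, 7.01 and 7.07 log2 in IL-1Ra and 6.13, 4.79 and 4.79 log2 in 4NQO, beside 6.69, 6.89 and 6.61 log2 in normal tongue (adjusted p = 0.0774), and Npas2 showed the same order with 4NQO array 1 at 6.53 log2 and the other 4NQO arrays at 5.32 and 5.0 log2 (adjusted p = 0.218). Per2 was at 8.01, 7.06 and 6.94 log2 against 7.15, 8.98 and 8.70 log2 (adjusted p = 0.281), and Tef, a relative of Dbp, at 7.52, 6.42 and 7.13 log2 against 7.77, 8.42 and 8.36 log2 (adjusted p = 0.0563), with a difference of -0.97 log2 in a dimmer probe set (adjusted p = 0.0345). In these 4 genes IL-1Ra array 1 and 4NQO array 1 were the arrays nearest to the other group.

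By count, 1 of 14 core loop genes fell (median 0.00 log2) and 2 of 8 output factors fell (median -0.63 log2), beside 0.753% of all genes. Without 4NQO array 1 the counts were 3 fallen and 2 risen in the loop and 4 fallen among the outputs. Bhlhe41 was called with any array left out. Dbp lost its call without IL-1Ra array 3 (adjusted p = 0.0520) and Nr1d2 without IL-1Ra array 3 or 4NQO array 1 or 2 (up to 0.0697). With the 6 arrays alone the adjusted p of Dbp was 0.0548 and that of Nr1d2 0.0833. No source used here gives the hour of the day at which the tissue was taken.

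The E-box CACGTG, which clock factors read, was searched for in the same RefSeq promoters. As before, the shares of the lists count genes and that of all promoters counts promoters. The E-box lay in promoters of 3 of 6 output factor genes (50%), of 1 of 12 core loop genes (8.33%) and in 6.42% of all promoters. Bhlhe41 was the called gene that held it, 48 bases before the start site (GRCr8 chr4:180569306-180569605, minus strand), and its promoter is printed with the E-box in capitals because its gene was the clock gene called with any array left out. The others were Bhlhe40, Tef and Nr1d1, which were not called by their brightest probe sets.
Bhlhe41: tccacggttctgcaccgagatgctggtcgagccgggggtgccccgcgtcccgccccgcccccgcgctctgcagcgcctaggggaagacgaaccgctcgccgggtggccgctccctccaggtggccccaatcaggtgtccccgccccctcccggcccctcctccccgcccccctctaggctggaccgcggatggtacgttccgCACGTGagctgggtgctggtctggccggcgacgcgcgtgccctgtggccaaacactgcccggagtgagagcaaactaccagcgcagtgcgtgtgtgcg

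**Figure D5:**
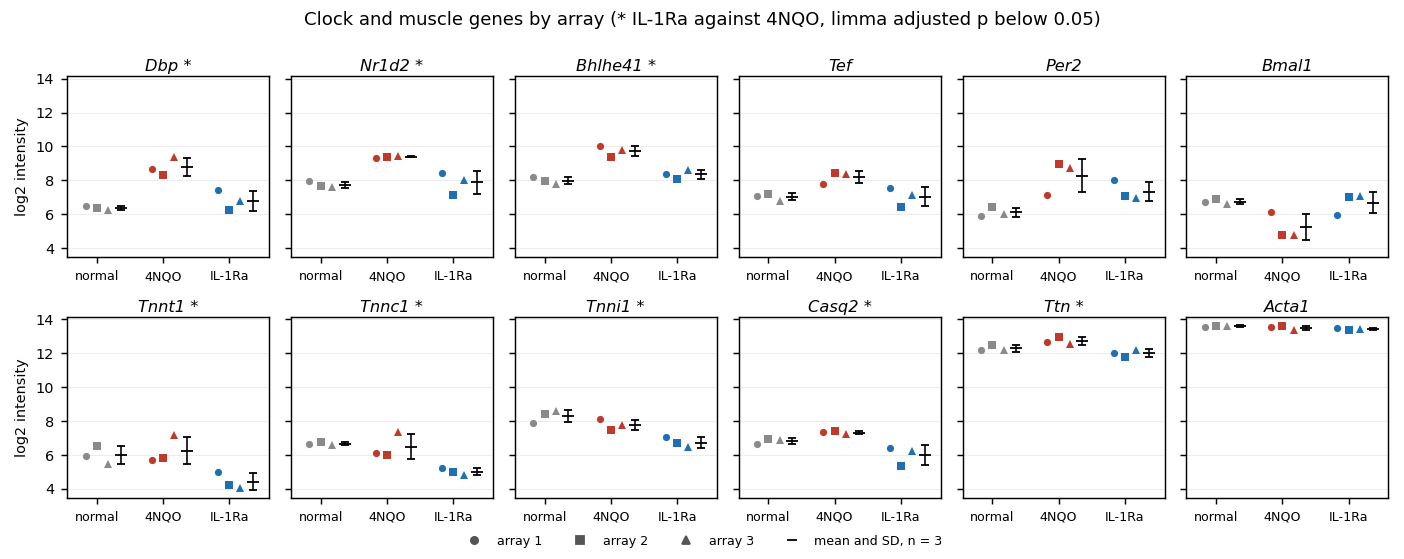
Level (log2 intensity) of 6 clock genes and 6 muscle genes by array, in blue for IL-1Ra, red for 4NQO and grey for normal tongue, with the mean and SD of 3 arrays, and an asterisk marks genes called between IL-1Ra and 4NQO. Bhlhe41 lies between 8.08 and 8.61 in IL-1Ra and between 9.39 and 10.01 in 4NQO, and Acta1 overlaps at 13.36 to 13.60.

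Of 14 measured slow fibre genes 5 fell and 0 rose, beside 0.753% and 1.91% of all genes, with a median of -0.90 log2. The median level of the list was 7.04, 6.93 and 6.55 log2 in IL-1Ra and 8.37, 7.78 and 7.55 log2 in 4NQO. In normal tongue it was 7.92, 8.49 and 8.77 log2, above every IL-1Ra array. Tnnt1, the slow skeletal troponin T, measured 4.97, 4.26 and 4.04 log2 in IL-1Ra and 5.72, 5.85 and 7.17 log2 in 4NQO (3.53-fold lower, adjusted p = 0.0486). Tnnc1, the troponin C of slow and cardiac muscle, was at 5.26, 5.02 and 4.80 log2 against 6.15, 5.99 and 7.34 log2 (2.76-fold lower, adjusted p = 0.0373), and Tnni1, slow troponin I, at 7.06, 6.69 and 6.45 log2 against 8.10, 7.5 and 7.77 log2 (2.08-fold lower, adjusted p = 0.0419). The 3 subunits of the slow troponin complex were thus lower together, and 4NQO array 3 was the highest in Tnnt1 and Tnnc1. Casq2, the calcium store protein of slow fibres, was at 6.43, 5.35 and 6.25 log2 against 7.34, 7.39 and 7.21 log2 (2.47-fold lower, adjusted p = 0.0243), and Atp2a2, the slow calcium pump, at 9.82, 9.75 and 9.52 log2 against 10.64, 10.32 and 10.47 log2 (1.72-fold lower, adjusted p = 0.0277). The 4 other Atp2a2 probe sets differed by -0.18 to 0.18 log2 and were not called, while the second Tnni1 probe set fell by 1.05 log2 (adjusted p = 0.0237).

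Fast fibre genes gave 0 calls of 15 (median -0.15 log2), but 12 of their differences were below 0. The lowest of these was -2.44 log2, that of Actn3. The lowest difference of the slow fibre list was -1.98 log2, that of Myl2, which was not called either. Other sarcomere genes gave 1 call of 16 (median -0.37 log2). That one was Ttn, titin, at 12.02, 11.78 and 12.22 log2 against 12.68, 12.96 and 12.53 log2 (1.64-fold lower, adjusted p = 0.0494), whereas Acta1, the main muscle actin, was at 13.50, 13.37 and 13.44 log2 against 13.53, 13.60 and 13.36 log2 (adjusted p = 0.796). The summed level of the slow fibre list was 13.76, 13.82 and 13.69 in IL-1Ra and 14.13, 13.97 and 13.95 in 4NQO, and that of the fast fibre list 16.27, 16.08 and 16.24 against 16.48, 16.55 and 16.17. The part of muscle content in these differences was not tested. Chrna1, a subunit of the muscle acetylcholine receptor, fell by 0.64 log2 (1.56-fold, adjusted p = 0.0296), the 1 call among 8 regeneration genes.

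These muscle calls were fragile. Tnnt1 lost its call without any IL-1Ra or normal array or 4NQO array 2 (adjusted p up to 0.159), Tnnc1 without any IL-1Ra or normal array (up to 0.120), Tnni1 without any IL-1Ra array, 4NQO array 1 or normal array 2 or 3 (up to 0.136) and Atp2a2 without any IL-1Ra array, 4NQO array 1 or normal array 3 (up to 0.0948). Casq2 lost its call without IL-1Ra array 3 or 4NQO array 1 or 2 (up to 0.0765), Chrna1 without any IL-1Ra array, 4NQO array 2 or normal array 1 (up to 0.0872) and Ttn without each array except 4NQO array 3 (up to 0.171). After cyclic loess Tnnt1, Tnni1 and Chrna1 were no longer called, with adjusted p-values of 0.0518, 0.069 and 0.0552. With the 6 arrays alone 0 slow fibre genes were called, and without IL-1Ra array 1, 2 or 3 there were 1, 1 and 0. Without 4NQO array 3, 2 fast fibre, 5 other sarcomere and 2 regeneration genes fell.

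Lipid and energy genes gave few calls, beside 1.91% of all genes called higher and 0.753% lower. Of 17 genes of PPAR-type lipid handling 2 fell (median -0.40 log2). The median level of that list was 8.50, 8.29 and 8.49 log2 in IL-1Ra and 8.79, 9.30 and 8.34 log2 in 4NQO. In normal tongue it was 9.49, 9.70 and 9.48 log2, above every array of both groups. Cd36, the fatty acid transporter, was at 9.24, 9.01 and 8.85 log2 against 9.80, 10.53 and 9.69 log2 (1.96-fold lower, adjusted p = 0.0400), and Fabp3, the fatty acid binding protein of heart and muscle, at 11.93, 12.17 and 11.87 log2 against 12.60, 12.81 and 12.41 log2 (1.53-fold lower, adjusted p = 0.0441). Cd36 lost its call without any IL-1Ra or normal array (adjusted p up to 0.130) and Fabp3 without each array except 4NQO array 3 (up to 0.129), without which 5 genes of the list fell. Of 20 beta-oxidation genes 0 passed (median -0.40 log2), and 6 fell without 4NQO array 3. In 11 of the 20 all IL-1Ra arrays lay below all 4NQO arrays, against 13.5% of all genes. All 36 respiratory chain genes were below 0 in difference with a median of -0.13 log2 and 0 calls, and 19 glycolysis genes gave 0 calls (median -0.17 log2). Of 17 genes of cholesterol synthesis 1 rose (median 0.40 log2), the methylsterol oxidase Msmo1, at 9.78, 9.61 and 9.64 log2 against 8.18, 7.68 and 9.01 log2 (2.62-fold, adjusted p = 0.0281). It lost its call without any IL-1Ra array, 4NQO array 1 or normal array 1 or 3 (up to 0.0985), and 10 genes of the list rose without 4NQO array 3.

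Genes of the response to oxidants and carcinogens changed singly, beside 1.91% of all genes called higher. Of 28 NRF2 targets and glutathione genes 2 rose and 0 fell, with a median of -0.06 log2. Hmox1, heme oxygenase 1, measured 9.31, 9.25 and 9.16 log2 in IL-1Ra, 7.39, 7.25 and 7.50 log2 in 4NQO and 9.47, 8.69 and 8.97 log2 in normal tongue (3.63-fold, 1.86 ± 0.18 log2, SE, adjusted p = 0.00167). The 3 arrays of each group lay close together, and the IL-1Ra level was that of normal tongue. Glrx, glutaredoxin, which reduces glutathionylated proteins, was at 12.44, 12.47 and 12.41 log2 against 10.34, 8.62 and 10.45 log2, with normal tongue at 12.32, 12.15 and 12.30 log2 (6.22-fold, adjusted p = 0.00984). Its second probe set rose by 4.10 log2 (adjusted p = 0.00343), and both genes were called with any array left out, 5 of the list rising without 4NQO array 3. Other targets differed among the 4NQO arrays. Gstm1, a glutathione transferase, was at 10.46, 10.11 and 9.28 log2 in IL-1Ra and 9.45, 9.50 and 12.15 log2 in 4NQO, and Slc7a11, the cystine transporter, at 9.64 log2 on 4NQO array 3 against 6.52 and 6.23 log2 on the others. Of 21 genes of xenobiotic oxidation 1 rose, Cyp3a9, a cytochrome P450, at 10.05, 10.27 and 9.97 log2 against 8.45, 6.92 and 8.38 log2 (4.53-fold, adjusted p = 0.0121; 0.061 without IL-1Ra array 2).

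Damage, growth and stress lists gave few calls, beside 1.91% of all genes called higher and 0.753% lower. Of 17 p53 and damage response genes 1 fell, Xpc, a sensor of nucleotide excision repair, at 6.51, 6.69 and 6.51 log2 against 6.97, 7.13 and 7.16 log2 (1.43-fold lower, adjusted p = 0.0455). Cdkn2a, the cyclin-dependent kinase inhibitor locus, was at 7.61, 7.28 and 8.74 log2 in IL-1Ra and 7.85, 7.07 and 7.78 log2 in 4NQO (adjusted p = 0.681), both far above the normal tongues at 4.64, 4.32 and 3.98 log2. Of 19 replication and 19 mitotic genes 0 passed, with medians of 0.04 and 0.07 log2. Without 4NQO array 2 these medians were -0.09 and -0.29 log2, and without 4NQO array 3 they were 0.20 and 0.39 log2. The absence of calls therefore does not show that these genes were unchanged. Mki67, the proliferation marker, was at 7.34, 7.92 and 7.30 log2 against 7.33, 6.78 and 8.21 log2 (adjusted p = 0.928). Among 18 immediate early factors Fosl2, an AP-1 subunit, rose 1.8-fold (adjusted p = 0.0169) and Nr4a1 fell 1.93-fold, from 8.42, 8.26 and 8.01 log2 in 4NQO to 7.22, 7.27 and 7.36 log2 in IL-1Ra (adjusted p = 0.0487). Of 11 genes of the EGF family 1 fell, Egf itself, at 6.71, 6.51 and 6.68 log2 against 7.41, 7.31 and 7.04 log2 (1.54-fold lower, adjusted p = 0.0312), and of 14 of the TGF-beta family 1, Acvr2b, an activin receptor, at 5.75, 5.41 and 5.81 log2 against 6.59, 6.95 and 6.45 log2 (2.0-fold lower, adjusted p = 0.0133). The ligand Tgfb1 overlapped (adjusted p = 0.898). Of 20 heat shock genes the mitochondrial chaperone Hspa9 fell 1.46-fold (adjusted p = 0.0252). Its other probe sets differed by -0.37, 0.17 and 0.25 log2 and were not called. The 18 interferon and 19 ATF4 target genes gave 0 calls (medians 0.12 and -0.05 log2).

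Of the single calls in these lists, Xpc and Egf were lost without each array except 4NQO array 3 (adjusted p up to 0.134 and 0.125). Nr4a1 was lost without any IL-1Ra array, 4NQO array 1 or 2 or normal array 2 (up to 0.148), and Hspa9 without IL-1Ra array 1 or 2, 4NQO array 1 or 2 or normal array 1 or 3 (up to 0.111). Fosl2 lost its call without any IL-1Ra array or 4NQO array 2 (up to 0.0762), and Acvr2b without IL-1Ra array 2 (0.0579). After cyclic loess Xpc, Egf and Nr4a1 were no longer called, with adjusted p-values of 0.0742, 0.0507 and 0.0748.

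The 10 largest rises among called genes were led by LOC100363236, a predicted gene, at 10.49, 12.63 and 8.76 log2 in IL-1Ra, 3.18, 4.55 and 6.73 log2 in 4NQO and 12.22, 10.97 and 12.57 log2 in normal tongue (56.0-fold, adjusted p = 0.0201). IL-1Ra array 2 was the highest of its group and 4NQO array 3 of the other, and the gene lost its call without IL-1Ra array 1 or 2 or 4NQO array 2 (adjusted p up to 0.0722). Another predicted gene, LOC102552128, followed Kprp in size, at 10.83, 11.03 and 10.18 log2 against 6.96, 5.64 and 7.49 log2 (15.8-fold, adjusted p = 0.00376). Beside Kprp, Kplce, Gsdma, Lce1f, Sprr2d and Klk6, which are described above, the remaining largest rises were Rnf227, a RING finger protein, and Hpd. Rnf227 was at 9.26, 9.18 and 9.17 log2 against 5.93, 5.13 and 6.37 log2 (10.5-fold, adjusted p = 0.00167), and its second probe set rose by 2.59 log2. Hpd, the dioxygenase that breaks down tyrosine, was at 7.5, 8.0 and 7.31 log2 against 4.99, 3.83 and 4.66 log2 (8.64-fold, adjusted p = 0.00143). Hpd, Rnf227 and LOC102552128 were called with any array left out. Among the largest falls outside the clock and muscle lists, LOC100910189, a predicted gene, was at 7.34, 6.02 and 6.12 log2 against 7.97, 8.87 and 7.72 log2 (3.23-fold lower, adjusted p = 0.0455; up to 0.158 without single arrays, called only without IL-1Ra array 1 or 4NQO array 3, and 0.0582 after cyclic loess). Zdhhc20, a palmitoyl transferase, was at 5.81, 6.05 and 5.49 log2 against 6.72, 6.86 and 7.13 log2 (2.17-fold lower, adjusted p = 0.0139; 0.0522 without IL-1Ra array 1). Kiaa0408L was 2.23-fold lower (adjusted p = 0.0241) and lost its call without any IL-1Ra array or 4NQO array 1 (up to 0.103).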

How the data were processed

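RNA of rat tongue tissue was hybridised to Affymetrix rat expression arrays, 1 for each sample. Affymetrix Expression Console with RMA is named in the submitters' processing notes, and no source used here gives a version. The authors deposited the RMA result as 1 intensity per probe set, on a linear scale that was turned into log2 here. RMA makes the distributions of the arrays alike, which can hide a shift that most genes share.

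Of 31099 probe sets, 57 controls were left out and 31042 tested, with no filter on dim ones. Platform annotation gave 20826 a single gene symbol, 436 several and 9780 none. Genes were named from the first kind only. Gene identifiers of 20758 were found in RefSeq, and 0 symbols were updated. These made 14217 genes, 4525 of them with more than 1 probe set. The probe set of highest mean over the 9 arrays stood for a gene.

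Samples were grouped by the treatment in the labels, and array numbers follow the order of the samples and pair nothing. With limma 3.58.1 under R 4.3.3, the 3 group means of each probe set were estimated from the 9 arrays together, with eBayes (6 residual and 4.01 prior degrees of freedom), two-sided tests and Benjamini-Hochberg adjustment over all probe sets at 0.05. A gene is called where it passed, and a difference is IL-1Ra minus 4NQO. The 3′ to 5′ control ratios were compared by an exact two-sided permutation test. Only 3 arrays per group limit the precision.

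The 48 gene lists, with 722 distinct measured genes, and the groups compared were chosen with earlier results of these data known. Named were the 10 largest rises and the 10 largest falls among called genes of non-overlapping arrays, the genes for which the study gives primers or which it names, and up to 4 members per list of lowest adjusted p with those whose role was needed. The remaining called list members were named after their values were seen. Only the RefSeq promoter table of GRCr8 was used for sequences.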

Additional observations from a re-analysis of the deposited data

How the results depend on the processing

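The fit of the 6 compared arrays alone called 195 probe sets (184 higher in IL-1Ra and 11 lower) against 722 (495 and 227) with the normal tongues, 190 of them shared. Array weights estimated per group gave 352 (296 and 56), and adjustment over 1 probe set per gene gave 359 (256 and 103). The methods' t-test after Benjamini-Hochberg gave 0 in all, 0 higher and 0 lower. At an unadjusted p under 0.05 it gave 3737, 357 of them with a 2-fold change. Cyclic loess gave 147 lower and an offset of 16 gave 392 lower. With 1 array left out the calls ran from 184 to 2353, those higher from 164 to 1173 and those lower from 20 to 1180, the top without 4NQO array 3 and the bottom without IL-1Ra array 2. The other settings called 703 to 892. The cause of these shifts was not tested. Of 219 genes named by the rule 57 were called and 0 changed direction under any setting while called. With the 6 arrays alone 22 of the 57 kept their call, under cyclic loess 49, and with any 1 array left out 17. No paired analysis was possible because the labels give no replicate numbers shared between groups. Dim probe sets near background limit what can be read from genes such as Ptgs2, Csf3r and Cd3d.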

Other observations

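Outside the 48 lists, 133 genes were called at least 2-fold higher in IL-1Ra and 3 at least 2-fold lower, and 58 of these genes were called with any 1 array left out. The genes below were chosen from them after their values were seen. Several have known places in cornified epithelium. Blmh, bleomycin hydrolase, which breaks filaggrin down to amino acids, was at 10.93, 10.89 and 10.85 log2 in IL-1Ra and 9.21, 8.64 and 9.30 log2 in 4NQO (3.59-fold, limma adjusted p = 0.00272). Ecm1, a secreted matrix protein of skin, was at 11.54, 11.70 and 11.47 log2 against 10.26, 9.15 and 10.01 log2 (3.40-fold, adjusted p = 0.00608). Mxd1, a MYC antagonist of differentiating cells, was at 8.38, 8.25 and 8.03 log2 against 6.56, 5.60 and 6.58 log2 (3.93-fold, adjusted p = 0.00372). In each of them the groups were well apart and 4NQO array 2 was the lowest.

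Wwtr1, or TAZ, a coactivator of the Hippo pathway, measured 8.13, 7.97 and 7.70 log2 in IL-1Ra and 6.06, 5.77 and 6.35 log2 in 4NQO (3.67-fold, adjusted p = 0.00143). Scnn1b, a subunit of the epithelial sodium channel, which prostasin (Prss8) is known to activate, was at 7.81, 7.33 and 7.80 log2 against 6.10, 5.62 and 6.44 log2 (3.02-fold, adjusted p = 0.00461). These 5 genes were called with any array left out, as were Sdcbp2 (6.54-fold, adjusted p = 0.0033), Serpinb7 (4.66-fold, adjusted p = 0.00676) and Clca2 (2.05-fold, adjusted p = 0.00296).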
